A study of Bos taurus with 30 samples.

Results

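GAL (Entrez Gene 280799), SERPINA14 (286871), AMIGO2 (514273) and HS3ST5 (540355) were measured in bovine corpus luteum, the ovarian gland that secretes progesterone, by all of their probe sets on the Affymetrix GeneChip Bovine Genome Array. These were 6 of the 24016 probe sets tested, and 4 of the 9155 genes with a symbol of their own. The genes were chosen from these same arrays because their signal rose 4 h after prostaglandin F2α (PGF2α) and rose more on day 11 of the estrous cycle than on day 4. The 0 h and 4 h values are therefore described without a test, and tests are given only for comparisons that hold the 24 h arrays.

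Corpora lutea came from 30 Angus crossbred heifers, 1 array each, in 6 groups of 5. On day 4 and on day 11 of the cycle, heifers given saline were sampled as the 0 h controls, and heifers given PGF2α were sampled 4 h or 24 h later. PGF2α triggers regression of the mature gland but not of the early one, and day 11 stood for the mid-cycle gland and day 4 for the early gland. Animals were assigned completely at random, so the replicates were separate heifers, and 5 arrays a group limited the precision of every value. The RNA came from whole tissue, in which fewer cells of a type and less RNA per cell cannot be told apart.

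Galanin, the product of GAL, is a neuropeptide cut from a larger precursor and released from dense-core granules, and it acts on cells through G-protein-coupled galanin receptors. SERPINA14 encodes the uterine serpin, or uterine milk protein, which the endometrial glands of ruminants secrete in quantity under progesterone. AMIGO2 is a membrane protein with leucine-rich repeats and an immunoglobulin domain, known from neurons as an adhesion molecule that promotes survival. HS3ST5 is an enzyme that adds a 3-O-sulfate to heparan sulfate, the step that makes the binding site for the clotting inhibitor antithrombin.

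Values are log2 signals, on which a difference of 1 is a doubling, and group values are mean ± SD. Array medians lay between 6.01 and 6.16, and the median within-group SD over probe sets was 0.198. The tissue label held against its markers: all 10 steroidogenic markers were measured and none lay among the dimmest 30% of probe sets in any group. A pair of arrays stood apart. Day 4, 24 h replicate 1 was the 1 array nearer to another group's centre (day 4, 0 h) than to its own, and day 11, 4 h replicate 1 had the lowest array weight (0.318) and a 3′ minus 5′ difference of the EF1A control of -1.40, against -2.46 to -2.28 on the other arrays of its group. For the 4 genes, the differences of 4 h from 0 h on day 11 and the tested 24 h comparisons that use either array are given with and without it. Their differences between the days at 4 h, and between 24 h and 4 h, are given with all arrays.

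GAL was low before treatment on both days and reached its highest level 24 h after PGF2α on day 11. At 0 h on day 4 its signal was 5.48, 4.71, 4.82, 5.22 and 4.99 in replicates 1 to 5 (5.04 ± 0.31, SD, n = 5). At 0 h on day 11 it was 3.98, 3.68, 3.51, 4.61 and 4.06 (3.97 ± 0.42). The untreated groups did not overlap, with every day 11 array below every day 4 array, as was also so for 12.8% of probe sets.

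At 4 h after PGF2α on day 4 the GAL signal was 7.01, 6.31, 7.88, 7.16 and 6.08 (6.89 ± 0.72), above every 0 h array of that day. On day 11 the 4 h arrays gave 10.62, 9.20, 10.05, 9.84 and 9.91 (9.92 ± 0.51), above every array of the other groups except day 11, 24 h. Over all probe sets 7.86% were higher on day 11 than on day 4 at 4 h without overlap. The differences from 0 h were 1.84 on day 4 and 5.95 on day 11, the latter the highest of all probe sets. GAL moved from percentile 23.3 of the probe sets of an array at 0 h on day 11 to percentile 92.5 at 4 h. The deposited values carry no detection calls, and a 0 h mean among the dimmest 30% of probe sets, as those of GAL, SERPINA14 and HS3ST5 on day 11, is not shown to lie above background, so that differences from it are given in log2 only.

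At 24 h the GAL signal was 6.11, 7.51, 6.92, 8.51 and 6.56 on day 4 (7.12 ± 0.93) and 11.10, 10.79, 10.28, 10.30 and 10.31 on day 11 (10.56 ± 0.37). The lowest day 11 array lay well above the highest day 4 array, which was replicate 4. In order of level, day 11 at 24 h and day 11 at 4 h overlapped, as did day 4 at 24 h and day 4 at 4 h. Each of these pairs was separate from the other, and day 4 at 0 h and day 11 at 0 h followed without overlap.

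SERPINA14 had a higher starting level on day 4 than on day 11 and ended highest on day 11 at 24 h. Its representative probe set, the one with the higher mean, gave 6.23, 7.50, 7.13, 5.59 and 5.54 at 0 h on day 4 (6.40 ± 0.89) and 3.65, 4.64, 4.41, 3.58 and 4.26 at 0 h on day 11 (4.11 ± 0.47). These groups did not overlap, and day 11 minus day 4 was -2.29.

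At 4 h SERPINA14 read 8.01, 7.70, 8.61, 6.93 and 8.07 on day 4 (7.86 ± 0.61) and 7.70, 7.74, 9.54, 9.90 and 8.83 on day 11 (8.74 ± 1.01). In contrast to GAL, the 4 h groups of the 2 days overlapped, and their means differed by 0.88. The larger 4 h rise on day 11 (4.64, against 1.47 on day 4) thus combined a day 11 minus day 4 difference of -2.29 at 0 h with one of 0.88 at 4 h. At 24 h the signal was 7.10, 7.31, 6.83, 9.10 and 7.78 on day 4 (7.62 ± 0.89), overlapping with 4 h and with 0 h of that day, and 11.94, 11.19, 10.58, 10.29 and 10.62 on day 11 (10.92 ± 0.65), above every other array of the study.

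The 24 h mean of SERPINA14 on day 11 was 2.18 above the 4 h mean, with no overlap, as in 8.12% of probe sets. In order of level, day 11 at 24 h and day 11 at 0 h were the separate extremes, while each neighbouring pair among day 11 at 4 h, day 4 at 4 h, day 4 at 24 h and day 4 at 0 h overlapped. The first probe set of SERPINA14 carries the suffix that Affymetrix gives to probes shared by several transcripts. The other probe set gave group means of 6.24, 7.80 and 7.58 on day 4 at 0, 4 and 24 h and of 4.01, 8.64 and 10.80 on day 11, and the first minus the other was -0.22 to 0.71 over the 30 arrays.

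AMIGO2 rose steeply on day 11 and lay within a narrow band on day 4. At 0 h its representative probe set gave 5.94, 5.77, 6.08, 5.59 and 6.54 on day 4 (5.98 ± 0.36) and 5.74, 5.89, 5.71, 6.11 and 5.89 on day 11 (5.87 ± 0.16), overlapping groups. At 4 h the values were 7.02, 6.41, 6.81, 5.97 and 6.11 on day 4 (6.47 ± 0.45), which overlapped with 0 h, and 8.53, 8.90, 9.69, 9.74 and 9.62 on day 11 (9.29 ± 0.55), which did not.

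At 24 h AMIGO2 read 6.33, 6.34, 6.44, 6.23 and 6.09 on day 4 (6.29 ± 0.13) and 9.02, 8.15, 8.52, 8.13 and 7.32 on day 11 (8.23 ± 0.62). The day 11 means stood in the order 4 h, 24 h, 0 h, and the 4 h and 24 h groups overlapped, with a difference of -1.07 between their means (7.24% of all probe sets fell without overlap). The lowest day 11 array at 24 h, replicate 5, was still above the highest day 4 array of any time. All 3 day 4 groups and day 11 at 0 h overlapped with their neighbours in level. The other AMIGO2 probe set was 0.51 to 1.65 dimmer on every array and had the same order on day 11, with means of 5.06 at 0 h, 7.93 at 4 h and 7.37 at 24 h.

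HS3ST5, like AMIGO2, had its highest mean at 4 h on day 11 and a lower one at 24 h. At 0 h it gave 4.31, 3.64, 4.31, 4.10 and 4.60 on day 4 (4.19 ± 0.36) and 3.90, 4.64, 4.73, 4.07 and 4.52 on day 11 (4.37 ± 0.37), with means at percentiles 27 and 28.5 of the probe sets. At 4 h it gave 5.64, 4.09, 4.92, 3.40 and 4.10 on day 4 (4.43 ± 0.86) and 6.86, 6.66, 8.13, 7.51 and 7.60 on day 11 (7.35 ± 0.60). Day 4 at 4 h had the widest spread of any HS3ST5 group, and its highest array, replicate 1, was still below the lowest day 11 array of that time.

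At 24 h HS3ST5 read 4.49, 4.97, 4.72, 5.31 and 4.23 on day 4 (4.74 ± 0.42) and 7.0, 6.60, 6.78, 5.71 and 5.50 on day 11 (6.32 ± 0.67). The lowest day 11 array exceeded the highest day 4 array by a small margin. In order of level day 11 at 4 h came first and overlapped with day 11 at 24 h, and the remaining 4 groups all overlapped with their neighbours.

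**Figure D1:**
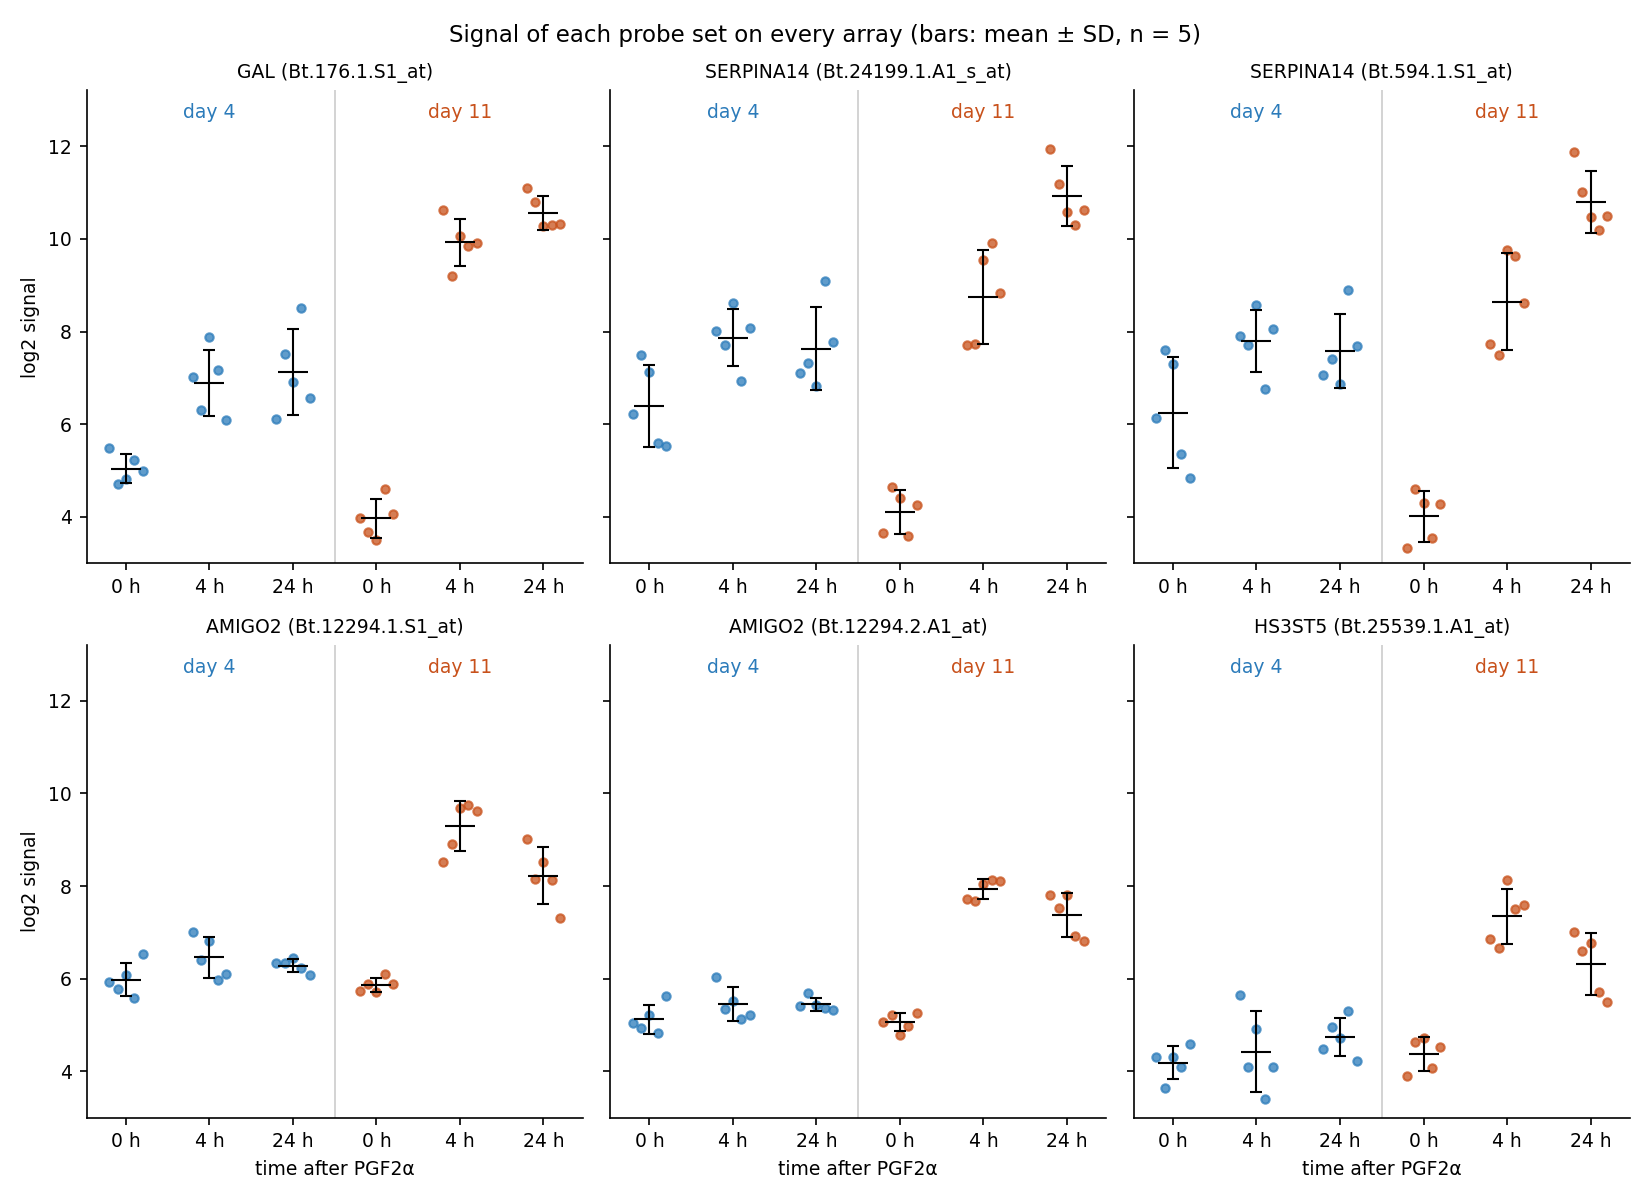
Log2 signal (vertical axis) of the 6 probe sets on each of the 30 arrays, by time after PGF2α on day 4 (blue) and day 11 (orange); points are arrays, and bars are mean ± SD of 5 arrays. GAL and SERPINA14 are highest at 24 h on day 11 (means 10.56 and 10.92), whereas AMIGO2 and HS3ST5 are highest at 4 h on day 11 (means 9.29 and 7.35).

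By their day 11 means, GAL and SERPINA14 were highest at 24 h, and AMIGO2 and HS3ST5 at 4 h. The 4 h and 24 h arrays of day 11 overlapped for GAL, AMIGO2 and HS3ST5, and the difference between these times was not tested. The differences between 4 h and 0 h on day 11, given as a description, were 5.95 for GAL, 4.64 for SERPINA14, 3.43 for AMIGO2 and 2.98 for HS3ST5, which ranked 1, 8, 23 and 34 of the 24016 probe sets. Without day 11, 4 h replicate 1, the array that stood apart, they were 5.78, 4.90, 3.62 and 3.10. All 6 probe sets had no overlap between 4 h and 0 h on day 11, against 4.98% of all probe sets, as the choice of genes fixed. On day 4 the same differences were 1.84, 1.47, 0.48 and 0.24, and GAL alone had no overlap (3.18% of all probe sets). An early rise larger on day 11 describes all 4, but GAL was also higher at 4 h on day 4, and for SERPINA14 the 4 h level itself overlapped between the days.

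**Figure D2:**
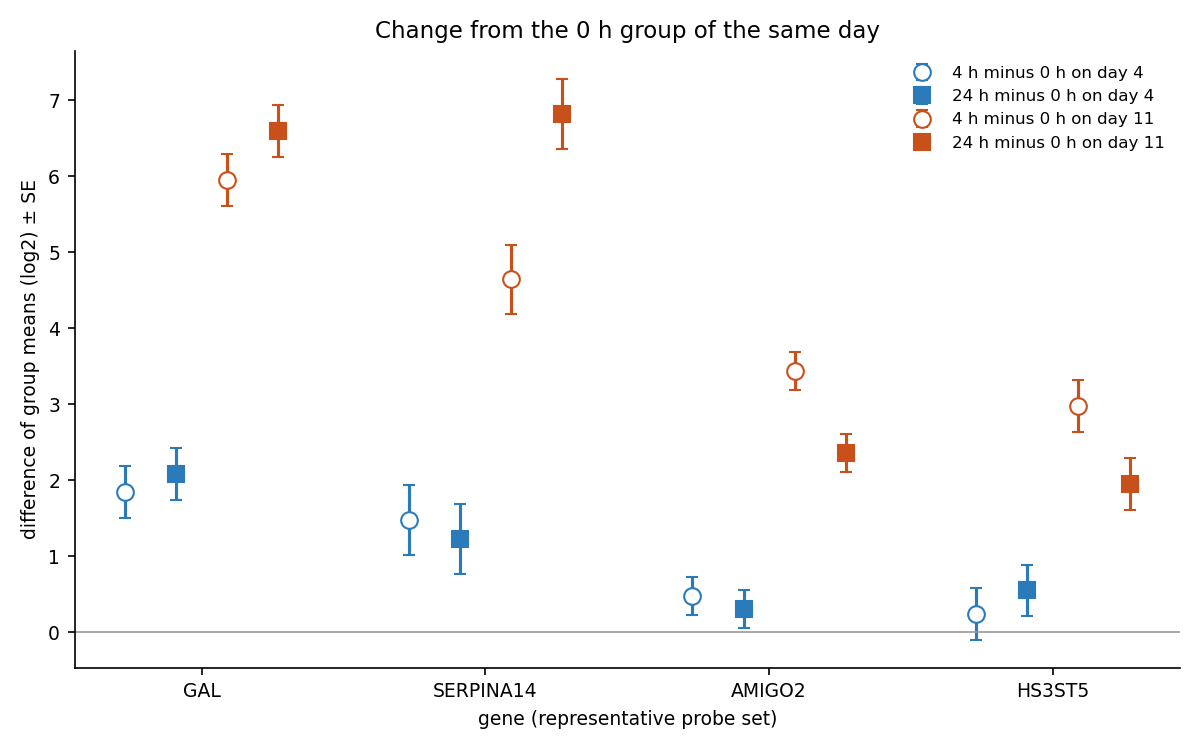
Difference of group means from the 0 h group of the same day (log2, vertical axis) for each gene's representative probe set, at 4 h (open circles) and 24 h (filled squares) on day 4 (blue) and day 11 (orange); bars are the standard error from the fit. The 24 h value on day 11 lies above the 4 h value for GAL (6.59 against 5.95) and SERPINA14 (6.82 against 4.64) and below it for AMIGO2 (2.36 against 3.43) and HS3ST5 (1.95 against 2.98).

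The comparison of the days at 24 h used no array that chose the genes. All 4 were higher on day 11 than on day 4, with all 6 probe sets past an adjusted p of 0.05, as were 15.9% of all probe sets, and with no overlap between the groups, as in 11.8% of all probe sets. GAL was 3.44 ± 0.34 (SE) higher, a 10.8-fold difference (95% interval 2.73 to 4.14 in log2), at a limma adjusted p of 5.6e-09. SERPINA14 was 3.30 ± 0.46 higher, 9.84-fold (2.37 to 4.23, limma adjusted p = 1.2e-06). By this comparison the neuropeptide and the serpin differed most between the days.

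AMIGO2 was 1.94 ± 0.25 higher on day 11 at 24 h, 3.84-fold (1.43 to 2.45, limma adjusted p = 3.9e-07). HS3ST5 was 1.57 ± 0.34 higher, 2.98-fold (0.88 to 2.27, limma adjusted p = 0.00046). The second probe sets gave 3.22 for SERPINA14 and 1.92 for AMIGO2. Each of the 4 differences had an exact two-sided permutation p of 0.0079, the smallest that 5 arrays against 5 can give. Without day 4, 24 h replicate 1 the differences were 3.18 for GAL, 3.17 for SERPINA14, 1.95 for AMIGO2 and 1.51 for HS3ST5, and all stayed past the threshold.

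From 0 h to 24 h on day 11 all 4 genes rose, and GAL and SERPINA14 were among the probe sets with the largest rise of the array. This comparison shares the 0 h arrays with the choice of genes. All 6 probe sets passed the threshold upward, beside 14.3% of all probe sets, and none had overlapping groups, beside 10% of all probe sets that rose without overlap. SERPINA14 rose by 6.82 ± 0.46 (limma adjusted p = 4.9e-12) and GAL by 6.59 ± 0.34 (limma adjusted p = 4.5e-14), which ranked 2 and 4 of 24016 as measured from their dim 0 h signals. AMIGO2 rose by 2.36 ± 0.25, 5.13-fold (limma adjusted p = 1.9e-08), and HS3ST5 by 1.95 ± 0.34 (limma adjusted p = 4.4e-05), which ranked 103 and 225.

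On day 4 GAL rose from 0 h to 24 h, by 2.08 ± 0.34 or 4.22-fold (interval 1.37 to 2.78, limma adjusted p = 0.0013), the fifth largest rise of all probe sets. The 0 h arrays of this comparison also served to choose the genes. The GAL arrays at 24 h did not overlap with 0 h, as in 2.54% of all probe sets, and its difference was 1.73 without replicate 4, the highest array, and 2.33 without replicate 1, the array that stood apart. GAL was the single one of the 4 genes past the threshold, beside 2.12% of all probe sets called higher. SERPINA14 differed by 1.23 ± 0.46 (0.30 to 2.16, limma adjusted p = 0.12), AMIGO2 by 0.30 ± 0.25 (-0.21 to 0.81, limma adjusted p = 0.63) and HS3ST5 by 0.55 ± 0.34 (-0.14 to 1.25, limma adjusted p = 0.44). Without both arrays that stood apart these differences were 1.36, 0.29 and 0.62, and none passed. The intervals still allow rises of more than 2-fold for SERPINA14 and HS3ST5. The call rate of this comparison depended on day 4, 24 h replicate 1, since 1240 probe sets passed in either direction with it and 2071 without it, while 357 passed without replicate 4.

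**Figure D3:**
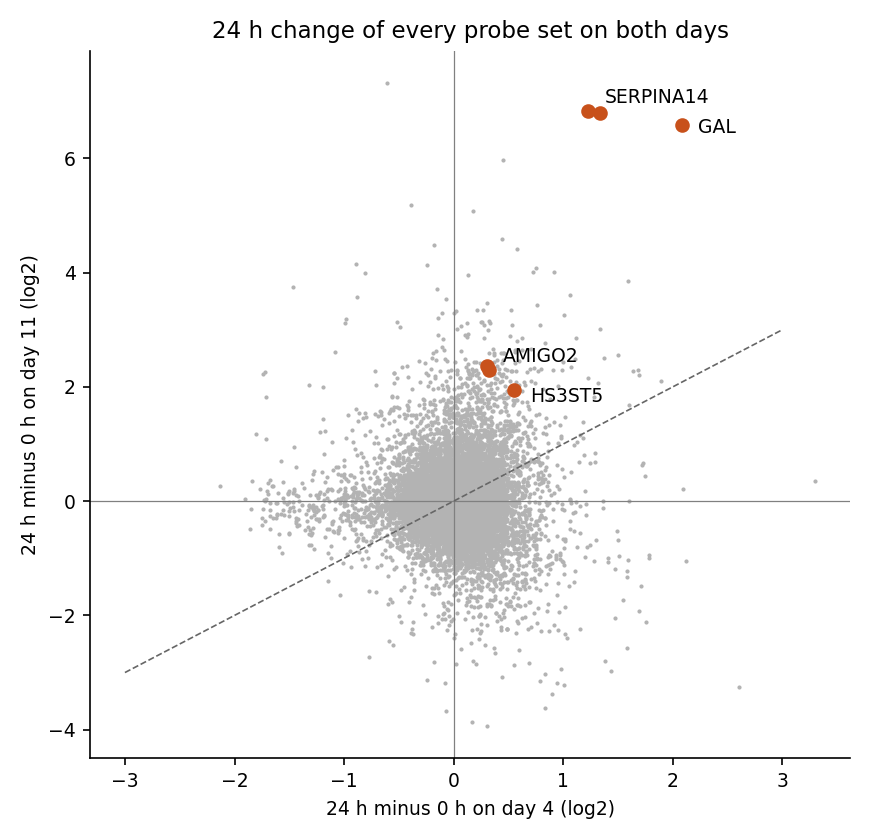
Change from 0 h to 24 h on day 4 (horizontal axis, log2) and on day 11 (vertical axis, log2) for all 24016 probe sets (grey) and the 6 probe sets of the 4 genes (orange); the dashed line marks equal change on both days. All 6 lie above the line, and GAL at 2.08 and 6.59 lies far to the upper right.

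The 24 h response was larger on day 11 than on day 4 for each of the 4 genes, tested as the difference of the 2 responses, and 10.6% of all probe sets passed this test upward. Both 0 h groups entered the choice of genes with the same sign as in this difference, which favours a positive value, so the test is not independent of the choice. The response was larger by 5.59 ± 0.64 for SERPINA14 (4.27 to 6.91, limma adjusted p = 2.4e-07), the second largest of all probe sets, and by 4.51 ± 0.49 for GAL (3.51 to 5.51, limma adjusted p = 8.6e-08). It was larger by 2.06 ± 0.35 for AMIGO2 (1.33 to 2.78, limma adjusted p = 6.8e-05). Without both arrays that stood apart these values were 5.46, 4.26 and 2.07, all past the threshold. Part of the value for GAL and SERPINA14 comes from their lower 0 h level on day 11, at day 11 minus day 4 differences of -1.07 and -2.29, whereas the 0 h groups of AMIGO2 overlapped.

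For HS3ST5 the day difference of the 24 h response was 1.39 ± 0.48 (0.41 to 2.37), close to the threshold at a limma adjusted p of 0.035. The call was lost when any 1 of 10 arrays was left out, at adjusted p of 0.054 to 0.074 with values of 1.22 to 1.36. These were replicates 1, 3 and 5 of day 4 at 0 h, replicates 1 and 5 of day 4 at 24 h, replicates 1 and 4 of day 11 at 0 h and replicates 1, 2 and 3 of day 11 at 24 h. Without both arrays that stood apart the HS3ST5 difference was 1.33 (limma adjusted p = 0.054).

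Day 11, 24 h replicate 1 had the highest signal of its group for all 4 genes, with 11.10 for GAL, 11.94 for SERPINA14, 9.02 for AMIGO2 and 7.0 for HS3ST5. The same array had the lowest mean level of the steroidogenic markers in its group, 10.65 against 11.10 to 11.29. On day 4 at 24 h it was replicate 4 that was highest for GAL, SERPINA14 and HS3ST5, and its steroidogenic level of 12.08 lay within the 12.02 to 12.15 of its group. Without day 11, 24 h replicate 1 the differences between the days at 24 h were 3.30 for GAL, 3.05 for SERPINA14, 1.74 for AMIGO2 and 1.40 for HS3ST5, all past the threshold.

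Markers of other cell types moved in the same comparisons, and their part in the results of the 4 genes was not tested. From 0 h to 24 h on day 11, 9 of 10 steroidogenic markers fell (median -0.86), beside 20.0% of genes, and the mean level of the list went from a range of 12.02 to 12.24 over arrays to 10.65 to 11.29. Over the same comparison 5 of 8 macrophage markers rose (median 1.20) beside 17.9% of genes, with levels of 8.10 to 8.88 at 0 h and 9.78 to 10.55 at 24 h, and 7 of the 10 markers of T and NK cells were higher (median 1.01), with levels of 4.77 to 4.99 and 5.57 to 6.03. Of 8 neutrophil markers 3 also rose, and 6 of 11 endothelial markers fell. At 24 h all 8 macrophage markers were higher on day 11 than on day 4 (18.8% of genes), with levels of 9.78 to 10.55 against 6.90 to 8.39.

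At 4 h on day 11, when AMIGO2 and HS3ST5 were highest, limma called 2 of 8 macrophage markers and 0 of 10 markers of T and NK cells higher, beside 10.1% of genes, and 3 of those 10 reached an unadjusted p under 0.05. Of 8 neutrophil markers 4 rose in the same comparison, S100A12 by 2.95 ± 0.46, S100A8 by 1.82 ± 0.51, S100A9 by 1.26 ± 0.30 and FCGR3A by 1.01 ± 0.28, and the level of that list went from 5.17 to 5.51 over the 0 h arrays to 5.86 to 6.87. CAMP, ELANE and MPO, further markers of neutrophils, were among the dimmest 30% of probe sets at both times. The S100A8 call was lost without replicate 1 at 4 h, the array that stood apart, and the FCGR3A call without replicate 4 at 4 h. Of 11 endothelial markers 4 rose (PECAM1, TEK, FLT1 and CDH5) and 1 fell (EMCN, by 0.62), with list levels of 7.98 to 8.17 at 0 h and 8.03 to 8.40 at 4 h, and the FLT1 call was lost without any 1 of replicates 1 and 2 at 0 h and replicate 1 at 4 h. The mean levels of the T and NK list were 4.76 to 5.68 at 4 h and 4.77 to 4.99 at 0 h, which overlap. Of the 10 steroidogenic markers 3 fell, beside 13.1% of genes, and 7 were not called.

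Galanin and AMIGO2 are known from neurons, and the uterine serpin from endometrium, so the markers of those tissues are given at both times. Of 11 neuron and Schwann cell markers measured, 2 rose at 4 h on day 11, beside 10.1% of genes. These were SNAP25, a protein of vesicle release, from 7.04 ± 0.40 to 8.46 ± 0.55 (limma adjusted p = 0.00058), and NEFM, a neurofilament, from 3.26 ± 0.18 to 3.83 ± 0.34. SNAP25 also rose at 4 h on day 4, by 1.68 ± 0.28 (limma adjusted p = 0.00038), where it was 1 of 2 markers called, beside 3.29% of genes. The other was S100B, whose call was lost without any 1 of replicates 1, 3, 4 and 5 at 0 h or 1, 2, 3 and 5 at 4 h. From 0 h to 24 h on day 11, 2 of the 11 rose (NEFM and UCHL1), beside 17.9% of genes, and levels of the list ran from 5.41 to 5.70 at 0 h and from 5.65 to 5.94 at 24 h. GAP43, NEFL, NEFM, SOX10 and STMN2 stayed among the dimmest 30% of probe sets in every group. Others were bright: over the groups UCHL1 lay at mean percentiles of 97 to 98.2, S100B at 87.2 to 97.4 and SNAP25 at 60 to 80.8. SYT1, TH and DBH lay between 30.4 and 41. Of 11 uterine and oviduct epithelium markers, 1 rose at 4 h on day 11, CDH1, the epithelial adhesion protein E-cadherin, from 5.95 ± 0.35 to 7.55 ± 0.30 (limma adjusted p = 2.3e-05). At 24 h 2 of the 11 were higher than at 0 h on day 11, beside 17.9% of genes (CDH1 by 1.43 ± 0.24 and CXCL14 by 1.78 ± 0.43), with list levels of 4.39 to 4.85 and 4.75 to 5.14. The epithelial and endometrial genes EPCAM, ESR1, KRT19, MUC1 and OXTR stayed among the dimmest 30% in every group. LTF lay at mean percentiles of 52.6 to 65.7 over the groups and CDH1 at 48.3 to 75.2. PAEP, KRT7 and OVGP1 lay between 33.6 and 44.1, and CXCL14 between 15.9 and 53.8.

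Across the 30 arrays the genes most like each of the 4 were named by Pearson correlation between representative probe sets, as a description over arrays that share the 6 groups. AMIGO2 and HS3ST5 were more like each other (r = 0.957) than like any of the genes named below, and GAL and SERPINA14 reached 0.891. GAL was nearly as like AMIGO2 (0.853) and HS3ST5 (0.814), whereas SERPINA14 reached 0.70 with AMIGO2 and 0.656 with HS3ST5. Nearest to AMIGO2 after HS3ST5 were GPRC5A (0.93), INHBA (0.928), which encodes an activin subunit, and ATF3 (0.925), a stress-response transcription factor. INHBA went from 7.39 at 0 h to 11.76 at 4 h and 9.62 at 24 h on day 11, the same order of means as AMIGO2. On day 4 the INHBA means were 6.92, 8.61 and 7.06.

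After AMIGO2, the gene nearest to HS3ST5 was BMP2 (0.912), a bone morphogenetic protein, with day 11 means of 4.42, 6.96 and 6.44 at 0, 4 and 24 h. LRP12 (0.896 with AMIGO2 and 0.888 with HS3ST5) and CTNNAL1 (0.91 and 0.883) were among the closest 5 outside the 4 for both genes. CCL5 (0.884), a chemokine, and STK17A (0.882) completed the HS3ST5 set.

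For GAL the nearest genes outside the 4 were PARM1 (0.918), SPP1 (0.912), SLC13A3 (0.903), MMP1 (0.894) and NRG1 (0.885). SPP1, which encodes the secreted matrix protein osteopontin, went from 9.04 at 0 h to 11.93 at 4 h and 12.89 at 24 h on day 11, and MMP1, interstitial collagenase, from 3.45 to 7.20 and 7.40. Like GAL, SPP1 was also higher after PGF2α on day 4 (9.10, 10.36 and 10.68), while MMP1 stood at 5.19 at 4 h and back at 3.97 at 24 h on day 4.

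Outside the 4 genes SERPINA14 was most like VMP1 (0.925), GK (0.894), UBE2E1 (0.887), EFHD2 (0.879) and PLAT (0.875). PLAT encodes tissue plasminogen activator, a protease that serpins inhibit, with day 11 means of 10.03, 10.92 and 11.61. GK, glycerol kinase, stood at 5.89, 6.85 and 8.53, so its larger step came between 4 h and 24 h. All 5 of these genes had a higher mean at 0 h on day 4 than on day 11, as SERPINA14 did.

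**Figure D4:**
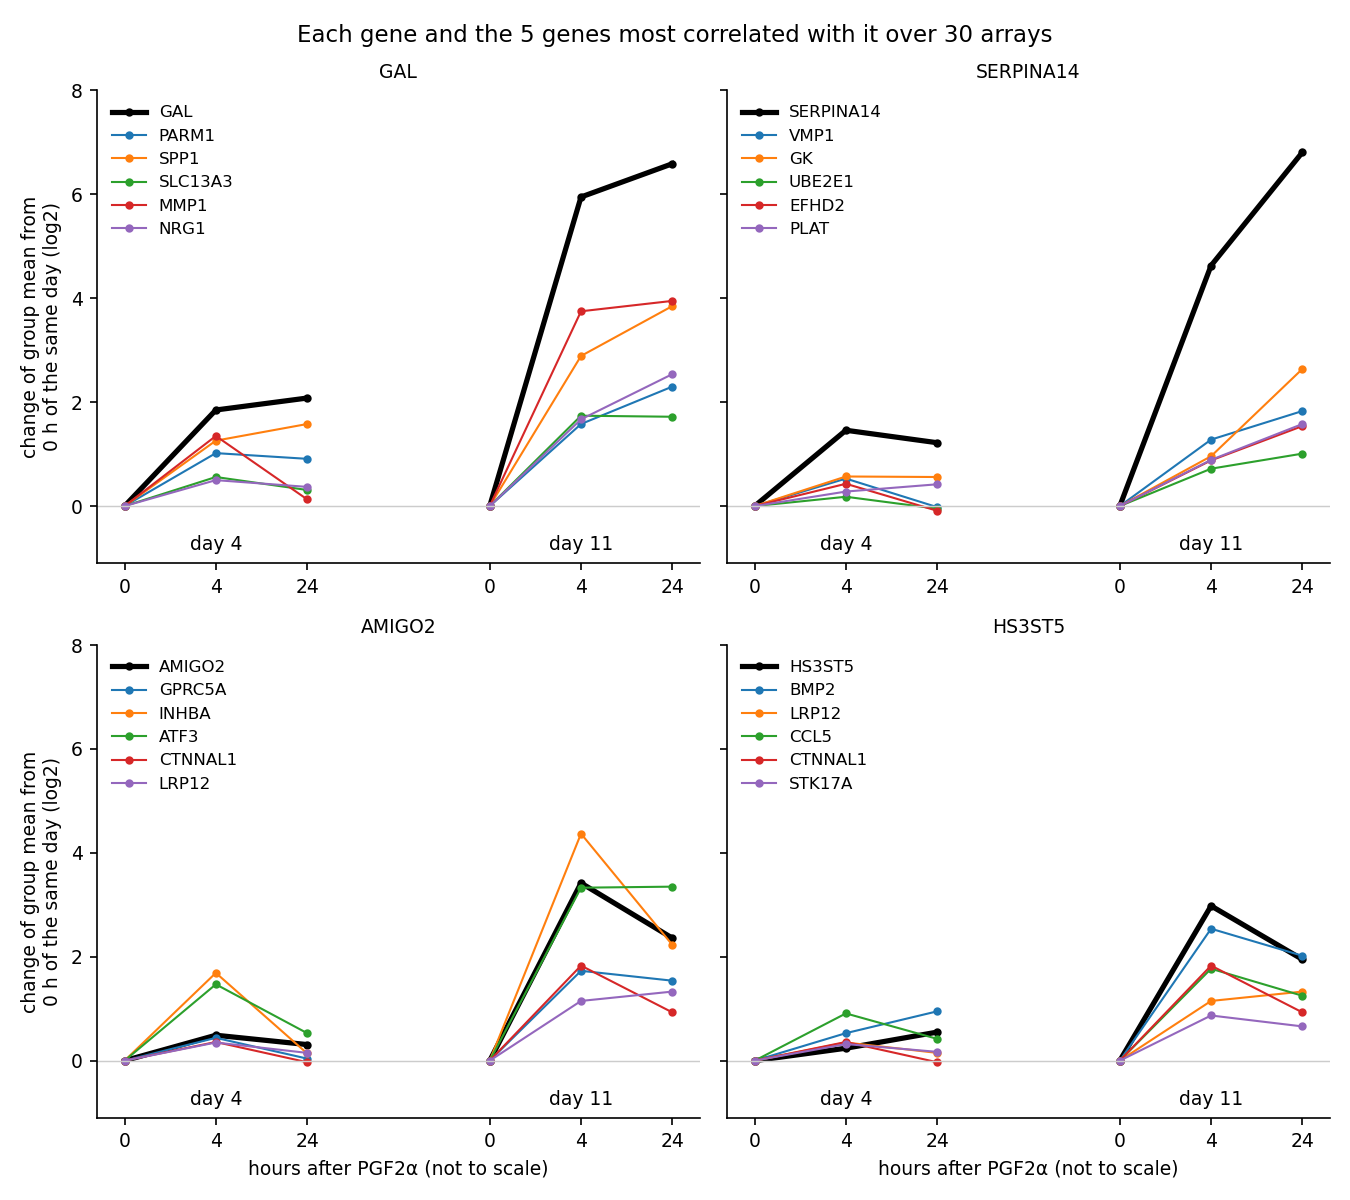
Change of the group mean from 0 h of the same day (log2, vertical axis) at 0, 4 and 24 h after PGF2α on day 4 and day 11. Each of the 4 genes (black) is drawn with the 5 genes outside the 4 most correlated with it over the 30 arrays (colours). GAL (6.59) and SERPINA14 (6.82) changed more at 24 h on day 11 than any of the genes drawn with them, while INHBA (11.76 at 4 h against 7.39 at 0 h) exceeded AMIGO2.

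In RefSeq's gene order for the assembly ARS-UCD2.0, SERPINA14 lies in a run of serpin genes, and its direct neighbour SERPINA11 was the measured neighbour with the largest 24 h change on day 11 of any of the 4 genes. SERPINA11 rose on both days: on day 4 from 5.79 ± 0.55 at 0 h to 7.84 ± 0.24 at 4 h (limma adjusted p = 7.5e-05) and 7.29 ± 0.62 at 24 h (limma adjusted p = 0.0054), and on day 11 from 4.13 ± 0.40 to 5.74 ± 0.54 (limma adjusted p = 0.00029) and 6.67 ± 0.62 (limma adjusted p = 1.3e-07). Like SERPINA14 it started lower on day 11 than on day 4. SERPINA11 passed no test of a day difference in response. Differences were -0.43 ± 0.43 at 4 h (limma adjusted p = 0.79) and 1.05 ± 0.43 at 24 h (limma adjusted p = 0.078). SERPINA14 was chosen for its larger 4 h rise on day 11, and its 24 h test shared the 0 h arrays of that choice. No contrast with SERPINA14 is therefore drawn from these values.

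SERPINA1, on the far side of SERPINA11 and known as α1-antitrypsin, differed by -0.16 ± 0.13 at 24 h on day 11 (limma adjusted p = 0.40). Beside GAL, PPP6R3 fell by 0.31 and MRPL21 by 0.36 in that comparison, in which 17.9% of genes rose and 20.0% fell. Near HS3ST5, HDAC2 rose by 0.72 and MARCKS by 1.10 at 24 h, and at 4 h they differed from 0 h by -0.07 and 0.32 (limma adjusted p = 0.87 and 0.18). The 1 measured neighbour of AMIGO2, SLC38A2, differed by 0.02. C29H11orf24 and LRP5 near GAL, and NT5DC1 and COL10A1 near HS3ST5, were not called at 24 h on day 11. At 4 h on day 11 SERPINA11 was the 1 measured neighbour of the 4 genes that was called higher, beside 10.1% of genes.

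Genes of the same pathways were followed through lists that leave out the 4 genes themselves. Of 5 galanin receptors and kin (GALR1, GALR2, GALR3, GALP and SPX) 1 was measured under its symbol, SPX, which encodes spexin. SPX lay between 4.25 and 4.71 in all 6 groups and was not called in any of the 5 comparisons, nor did it reach an unadjusted p under 0.05 in limma. The receptors of galanin were not analysed here.

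Of 13 measured genes of prohormone processing and dense-core granules, the machinery that cuts and stores peptides such as galanin, 1 rose and 3 fell from 0 h to 24 h on day 11, beside 17.9% and 20.0% of genes (median 0.28, against -0.01 for all genes). Without both arrays that stood apart 3 rose and 3 fell. Of the 4 calls with all arrays, 2 held when each array in turn was left out, and those of PCSK7 and CPE did not. CHGA, the granule protein chromogranin A, fell from 12.36 ± 0.09 to 11.48 ± 0.02 (limma adjusted p = 5.3e-11). QPCT, glutaminyl cyclase, rose by 0.40 ± 0.10 and lay among the dimmest 30% of probe sets in every group. At 24 h 3 were higher and 4 lower on day 11 than on day 4, beside 18.8% and 27.4% of genes. Among them SCG5, a chaperone of the convertase PC2, was 1.55 ± 0.21 higher. SCG5 was already higher at 0 h on day 11 (8.42 ± 0.18 against 6.51 ± 0.29), and its 24 h response did not pass the test of a day difference (-0.36 ± 0.30, limma adjusted p = 0.46).

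Among 22 other neuropeptides and small peptide hormones measured, 4 rose and 0 fell at 4 h on day 11, beside 10.1% and 13.1% of genes. At an unadjusted p under 0.05 in limma 0 were lower too, and the median was 0.03. At 24 h on day 11, 3 rose and 2 fell, beside 17.9% and 20.0% of genes. With each array left out in turn, 3 of the 4 calls at 4 h and 3 of the 5 at 24 h held. The largest 4 h rises were those of EDN1, the vasoconstrictor endothelin 1 (1.99 ± 0.30, limma adjusted p = 2.3e-05), and PENK, proenkephalin (1.12 ± 0.29, limma adjusted p = 0.0061). EDN1 also rose at 4 h on day 4 (1.36 ± 0.30, 3.29% of genes called higher) and its level on day 4 was 5.45 at 24 h, below its 0 h level of 5.72. ADM, adrenomedullin, rose by 1.47 ± 0.25 at 24 h on day 11, and TAC1, the precursor of substance P, fell by 1.67.

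Among 18 other serpins, 6 rose and 2 fell at 24 h on day 11, beside 17.9% and 20.0% of genes (median 0.02). SERPINA11 stood apart at 2.55 ± 0.30, and the next were SERPING1, the C1 inhibitor (0.88 ± 0.31, limma adjusted p = 0.03), and SERPINI1, neuroserpin (0.75 ± 0.16). The call of SERPING1 was lost without any 1 of replicates 1 and 5 of day 11 at 0 h and replicates 3, 4 and 5 of day 11 at 24 h. SERPINI1 lay among the dimmest 30% of probe sets in every group, as did SERPINA11 at 0 h on day 11. Of the 8 serpin calls, 6 held when each array in turn was left out. SERPINH1, the collagen chaperone HSP47, fell by 0.91. At 4 h on day 11 limma called 2 serpins higher and 0 lower, beside 10.1% and 13.1% of genes (1 lower at an unadjusted p under 0.05). Without both arrays that stood apart 1 rose and 1 fell. At 24 h on day 4 the 2 that rose, beside 3.03% of genes, became 5 without both arrays.

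For AMIGO2, 10 genes of AMIGO and leucine-rich repeat adhesion proteins were measured, of which 3 fell at 4 h on day 11, beside 13.1% of genes (median -0.12). None rose, at an adjusted or unadjusted p under 0.05 in limma (0 of 10). AMIGO1, the closest relative measured, fell by 0.67 at 4 h and by 0.48 at 24 h on day 11, from 5.68 ± 0.23 to 5.02 ± 0.16 and 5.20 ± 0.14. The 24 h response of AMIGO1 differed between the days by -0.82 ± 0.17 (limma adjusted p = 0.00072). AMIGO2 was chosen for its larger 4 h rise on day 11, so no contrast with it is drawn from these values. LRIG3 fell by 0.93 at 4 h on day 11 and by 0.88 on day 4, the 1 call among the 10 there beside 1.99% of genes, where 8 single arrays (replicates 1, 4 and 5 at 0 h and all 5 at 4 h) could each end the call, and LRFN3 fell by 0.46 at 4 h on day 11.

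Of 13 heparan sulfate synthesis and remodelling genes, limma called 0 higher and 2 lower at 4 h on day 11, beside 10.1% and 13.1% of genes. At an unadjusted p under 0.05, 0 were higher and 4 lower at that time, when HS3ST5 was highest. At 24 h on day 11, 5 rose and 3 fell (median -0.02), beside 17.9% and 20.0% of genes, and 6 of these 8 calls held with each array left out in turn. XYLT2, the xylosyltransferase that starts the chain, fell from 8.74 ± 0.17 at 0 h to 8.11 ± 0.14 at 4 h and 7.68 ± 0.30 at 24 h (limma adjusted p = 1.4e-07), and its 24 h response differed between the days by -1.41 ± 0.18. PAPSS1, which makes the sulfate donor, fell by 0.57 at 4 h and 0.55 at 24 h, while the chain polymerases EXT1 and EXT2 rose by 0.49 and 0.38 at 24 h. Of 8 heparan sulfate core proteins, limma called 0 at 4 h on day 11 (1 lower at an unadjusted p under 0.05). At 24 h on day 11, 3 rose and 1 fell, beside the same 17.9% and 20.0% of genes, and GPC4, glypican 4, fell by 0.76. Of these 4 calls, 2 held when each array in turn was left out, and those of SDC2 and SDC3 did not.

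Of 15 antithrombin and clotting genes measured, limma called 8 higher, beside 10.1% of genes, and 0 lower (1 lower at an unadjusted p under 0.05) at 4 h on day 11, with a median of 0.48 against -0.04 for all genes. In the same comparison 4 of 11 endothelial and 4 of 8 neutrophil markers rose, as given above, and their part in these values was not tested. F3, tissue factor, rose from 5.24 ± 0.41 to 7.79 ± 1.00 (limma adjusted p = 5.1e-06), THBD, the anticoagulant receptor thrombomodulin, from 7.59 ± 0.15 to 9.29 ± 0.31 (limma adjusted p = 8.8e-09), and the protease inhibitor TFPI2 from 8.96 ± 0.30 to 10.68 ± 0.40 (limma adjusted p = 3.1e-07). The genes that rose thus included both the starter of clotting and an anticoagulant receptor. Of the 8 calls, 6 held when each array in turn was left out, and the other 2 were F2R (lost without each array of day 11 at 0 h and without replicates 3 and 4 at 4 h) and F2RL1 (lost without replicates 2 and 5 at 0 h and replicates 3, 4 and 5 at 4 h).

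The 4 h response of THBD was larger on day 11, by 1.21 ± 0.23 (limma adjusted p = 0.0041). From 4 h to 24 h on day 11 THBD fell by 1.05 and TFPI2 by 0.69. TFPI2 did not pass the test of a day difference at 4 h (0.91 ± 0.28, limma adjusted p = 0.12). HS3ST5 was chosen for its larger 4 h rise on day 11, so no likeness to it is drawn from these values. F3 did not pass it either (0.69 ± 0.50, limma adjusted p = 0.67 for the 4 h day difference), and F3 also rose at 4 h on day 4, from 6.26 ± 0.45 to 8.12 ± 0.73. At 24 h on day 4 F3 stood at 5.72 ± 0.29, and on day 11 it was still 7.30 ± 0.40, a day difference in response of 2.61 ± 0.50 (limma adjusted p = 0.00025). At 24 h on day 4 limma called 0 clotting genes higher (1 at an unadjusted p under 0.05) and 2 lower, beside 4.73% of genes. These were F2RL2, whose call was lost without any 1 of replicates 1 to 4 at 0 h or 2, 4 and 5 at 24 h, and TFPI2, lost without any 1 of replicates 1, 2, 3 and 5 at either time.

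**Figure D5:**
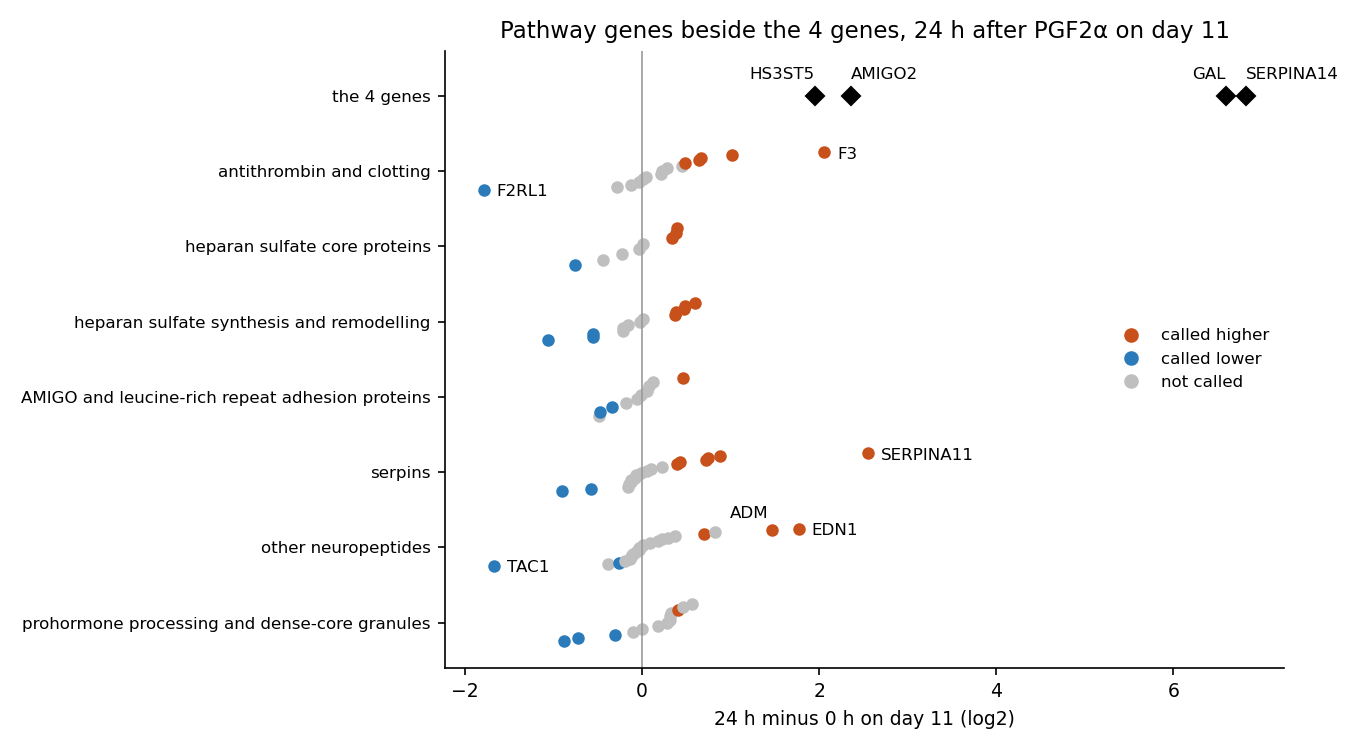
Change from 0 h to 24 h on day 11 (log2, horizontal axis) for the 4 genes (black diamonds) and for every measured gene of the 7 pathway lists with several measured genes (rows), coloured by whether the gene was called higher (orange), lower (blue) or not called (grey). GAL (6.59) and SERPINA14 (6.82) lie furthest to the right, and the list genes furthest to the right are SERPINA11 (2.55) and F3 (2.06). The 4 genes were chosen for a 4 h rise from the same 0 h arrays, and the list genes were not.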

How the data were processed

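The authors deposited 1 log2 value for each probe set and array, computed with RMA (version not given), per the submitters' processing notes. RMA removes background, equalises the arrays' distributions and combines a probe set's probes into 1 value; which arrays were normalized together is not given in the sources used here. The values were used as deposited, without detection calls.

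After 112 control probe sets were left out, 24016 were fitted together over all 30 arrays in limma 3.58.1 (R 4.3.3), with 1 mean per group, and p-values were adjusted over all of them by Benjamini-Hochberg. Called means an adjusted p under 0.05. Probe sets were named from the platform annotation, 13292 with 1 symbol, 86 with several and 10638 with none. A gene's representative probe set was the one with the highest mean. RefSeq's gene order (assembly ARS-UCD2.0) gave neighbours, and no positions or sequences were used.

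The genes named were all probe sets of the 4 genes and up to 3 called genes with the largest rise and fall per list and comparison. The 5 genes outside the 4 that were most correlated with each of the 4 were also named. SPX (the single measured gene of its list), the neighbouring genes and the marker genes named singly were added after their values were seen. The 4 genes, the 16 gene lists (284 entries, 179 measured) and the tests were chosen with earlier results of these data known. The alternatives were array medians subtracted, further quantile normalization, the dimmest 30% of probe sets dropped, variance trend with robust moderation, array weights, a replicate block, the arrays of a contrast alone, a threshold of 0.01, each array left out, exact permutation tests and the mean of a gene's probe sets. Leaving out both arrays that stood apart and using the other probe set were added after the data were seen. The fit was tested on simulated data.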

Additional observations from a re-analysis of the deposited data

Results flagged for a closer look

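The 24 h response differed between the days for each of the 4 genes by a test of the difference itself in limma. It was larger on day 11 by 4.51 for GAL (adjusted p = 8.6e-08), by 5.59 for SERPINA14 (adjusted p = 2.4e-07), by 2.06 for AMIGO2 (adjusted p = 6.8e-05) and by 1.39 for HS3ST5 (adjusted p = 0.035). The 0 h arrays in these differences also served to choose the genes, with the same sign, so these tests are not independent of that choice.

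On the second AMIGO2 probe set, day 4, 24 h replicate 2 lay above the other arrays of its group at 5.70, with a gap to the nearest of 0.741 of the group's range, against a critical value of 0.71. This was 1 of 36 groups examined, and chance flags about 1 in 20.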

How the results depend on the processing

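Of 172 alternative values of the 4 tested 24 h comparisons of the 4 genes, 169 kept direction and side of the threshold, and none reversed. The exceptions were all the day difference of the 24 h response of HS3ST5, at 1.26 with array weights (limma adjusted p = 0.052), 1.39 at a threshold of 0.01 (adjusted p = 0.035) and 1.33 without both arrays that stood apart (adjusted p = 0.054). Leaving out 1 array at a time gave 1.22 to 1.60 for it, and 10 of the 480 such values over all 4 genes fell short of the threshold, all of them this result. GAL at 24 h on day 4 ran from 1.73 to 2.33 with 1 array left out. The number of probe sets called from 0 h to 24 h on day 4 was 1240, but 2356 with array weights, 147 with the arrays of that contrast alone, 306 at 0.01, 2296 without both arrays that stood apart and 357 to 2071 with 1 array left out. The day difference of the 24 h response had 5342 calls, and 3422 at 0.01. The causes were not tested.

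Replicate numbers are shared between groups but did not pair arrays: deviations of arrays with the same number correlated at -0.20 to 0.26 (median 0.05), and those with different numbers at -0.35 to 0.26. With the replicate number as a block, no call of the 4 genes changed. HS3ST5 had an adjusted p of 0.033 for its day difference, and 1390 probe sets were called at 24 h on day 4.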
